A study of Homo sapiens with 2 samples.

Results

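The chemokines, interleukins and interleukin receptors were examined in SF-539 cells, a human glioblastoma (GBM) cell line, with and without knockdown of FKBP9, a peptidyl-prolyl isomerase of the endoplasmic reticulum (ER). The genes were taken by name: protein-coding genes whose symbol is CCL, CXCL or IL followed by a digit. This gave 126 of the 58735 genes in the table, made up of 41 chemokine ligands, 40 interleukin ligands, 41 interleukin receptors and 4 further proteins (the antagonists IL1RN and IL36RN, the decoy IL18BP, and IL4I1, an enzyme named for its induction by interleukin 4). SF-539-shControl cells carried the pGIPZ-CTRL lentivirus and SF-539-shFKBP9 cells a lentivirus with a short hairpin RNA against FKBP9, and both had been selected with puromycin as stable clones, were grown in DMEM with serum, and were labelled with passages 15 to 18 and as epithelial glioma cells of the brain. There was 1 RNA library per condition, so no difference between the conditions has a replicate check within these data. Which hairpin against FKBP9 the sequenced library carried is not given in the sources used here. A difference between clones or cultures, an effect of the hairpin on other genes and an effect of the knockdown cannot be told apart.

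Chemokines are small secreted proteins that draw leukocytes along a gradient, and they signal through G protein-coupled receptors of the CCR and CXCR families. Interleukins signal through paired receptor chains: the IL-6 family shares the chain IL6ST (gp130), the IL-1 family pairs a ligand-binding chain with the accessory protein IL1RAP and is held in check by the receptor antagonist IL1RN, and the IL-17 family uses IL17RA with a second chain. Glioma cells are known to secrete several of these proteins, above all CXCL8, IL6 and CCL2, and many of the genes are classical targets of the transcription factors NF-κB and AP-1.

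The stretches before the RefSeq start of several ligand genes are shown first. CXCL1, CXCL2 and CXCL3, 3 related genes of the same cluster, carry nearly the same letters there. Each line gives 30 bases, 5′ to 3′ on the strand of the gene, with a match to the NF-κB motif GGNNTTTCC in capitals. The sequences are from RefSeq (GRCh38.p14).
IL6, chr7:22727118-22727147, plus strand: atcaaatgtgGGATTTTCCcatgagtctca
CXCL8, chr4:73740468-73740497, plus strand: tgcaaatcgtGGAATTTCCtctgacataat
CXCL1, chr4:73869305-73869334, plus strand: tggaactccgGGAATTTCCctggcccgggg
CXCL2, chr4:74099253-74099282, minus strand: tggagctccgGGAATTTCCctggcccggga
CXCL3, chr4:74038748-74038777, minus strand: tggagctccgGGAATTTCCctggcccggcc

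The match began 72 bases before the RefSeq start in IL6, 91 in CXCL8, 78 in CXCL1, 77 in CXCL2 and 78 in CXCL3. The gene spans of the deposited data begin elsewhere. In those spans the stretches of IL6, CXCL2 and CXCL3, and the end of the longer CXCL8 stretch below, lie inside the gene. Of the 30 bases, CXCL2 and CXCL3 differed at 2, CXCL1 and CXCL2 at 2, and CXCL1 and CXCL3 at 3. The longer upstream stretches of CXCL8, the most abundant ligand, of IL11, the second, and of CCL3 follow, each running from 250 to 51 bases before the start, with matches to the NF-κB motif or to the AP-1 motif TGANTCA in capitals.
CXCL8, chr4:73740319-73740518, plus strand: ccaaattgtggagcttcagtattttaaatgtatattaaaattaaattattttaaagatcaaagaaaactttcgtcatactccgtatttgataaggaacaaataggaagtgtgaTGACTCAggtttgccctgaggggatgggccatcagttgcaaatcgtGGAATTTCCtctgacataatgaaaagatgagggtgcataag
IL11, chr19:55370514-55370713, minus strand: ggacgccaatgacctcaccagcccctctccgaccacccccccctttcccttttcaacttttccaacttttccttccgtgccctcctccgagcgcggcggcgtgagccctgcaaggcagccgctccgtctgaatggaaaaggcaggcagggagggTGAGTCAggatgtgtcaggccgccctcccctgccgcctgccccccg
CCL3, chr17:36090194-36090393, minus strand: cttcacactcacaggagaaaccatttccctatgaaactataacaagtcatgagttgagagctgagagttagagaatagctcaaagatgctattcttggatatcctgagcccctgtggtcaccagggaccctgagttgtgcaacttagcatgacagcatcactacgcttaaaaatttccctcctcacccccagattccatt

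CXCL8 held both motifs, IL11 held the AP-1 motif and CCL3 held neither in these 200 bases. Motifs were searched on both strands of the same 200 bases before the most upstream start of each gene. Of the 53 genes of the set with enough fragments (below), 45 had a window in the table, and 10 of these 45 held the NF-κB motif, against 4.34% of the 27305 genes in the table. Among the ligands it was 8 of 19, namely CXCL1, CXCL2, CXCL3, CXCL5, CXCL6, CXCL8, IL6 and IL32, and the other 2 were the receptors IL1R2 and IL27RA. The 27305 genes were not limited to protein-coding or detected genes, as the 45 were. CXCL1, CXCL2 and CXCL3 carry nearly the same site, so they are not independent matches. The AP-1 motif was found in 6 of the 45, against 5.33% of all genes. The motif of ATF4 and CHOP, TGATGNAA, was found in IL7R, IL20RB and IL21R (2.58% of all genes), that of XBP1 and ATF6, TGACGTGG, in 0 (0.487%), the CREB motif TGACGTCA in IL32 (1.01%), and the interferon motif GAAANNGAA in CXCL2, CXCL3, IL24 and IL1RL1 (5.73%). A match describes the letters and is not evidence of binding. CCL2, CCL4, IL36B, IL15, IL7, IL17RA, IL31RA and IL13RA2 had no window.

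Levels are given as FPKM, fragments scaled by gene length and library size, together with the number of fragments recovered from them. On genes, 18116873 fragments were counted in shControl and 17158514 in shFKBP9. FKBP9 itself was at 49.8 FPKM (4659 fragments) in shControl and 4.68 FPKM (415 fragments) in shFKBP9, so the labels match the knockdown. Of the glial markers, VIM was at 277 and 295 FPKM, NES at 2.36 and 2.17, OLIG2 at 0.791 and 0.712 and GFAP at 0.196 and 0.139 FPKM (43 and 29 fragments), while SOX2 had 4 and 7 fragments, S100B 0 and 1, and AQP4 none in either library; of the mesenchymal markers, COL1A1 was at 837 and 884 FPKM and COL3A1 at 0.341 and 0.359. GFAP, which defines astrocytes, was thus low but measured. Of 8 glial markers 5 had 10 fragments (2 higher, 3 lower), and of 6 mesenchymal markers 5 did (5 higher), with 0 called in either list.

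Ratios are given on the log2 scale as shFKBP9 over shControl, after adding 0.1 FPKM to each, and the interval beside a ratio is the exact 95% interval of the fragments, with nothing added, which covers counting error only. A gene was called when it had at least 10 fragments in the 2 libraries together and a log2 ratio above 1 or below -1. Of the 126 genes, 53 reached 10 fragments, 27 had 1 to 9, and 46 had none. The silent genes are spread over the set: 21 of 41 chemokine ligands and 18 of 40 interleukin ligands had no fragment, against 7 of 41 receptors. No fragment allows up to 3, which on a gene of 1 kilobase is 0.166 FPKM in shControl and 0.175 FPKM in shFKBP9.

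Among the 53 genes, 6 were called higher in shFKBP9 (IL6, CCL4, IL13RA2, CCL3, IL1RN and CCL2) and 1 lower (IL17RE). With 1 FPKM added in place of 0.1, only the call of IL6 was left: CCL4 was then at 0.76, CCL3 at 0.74, CCL2 at 0.73, IL1RN at 0.86, IL13RA2 at 0.38 and IL17RE at -0.26. Of all 13040 protein-coding genes with 10 fragments, 0.452% were called higher and 0.445% lower, against 11.3% and 1.89% of the set. Calls were more frequent at low depth, and among genes with 10 to 99 fragments the background was 2.17% higher and 2.27% lower, against 4 and 1 of the 24 genes of the set. IL13RA2 and IL17RE reached 10 fragments only through the library where they were high. With 10 fragments required in each library, a minimum chosen after seeing the data, 5 of 45 genes were called higher (IL6, CCL4, CCL3, IL1RN and CCL2) and 0 lower, where 0.204% and 0.155% of all genes were. The counting interval lay above 0 for 16 of the 53 genes and below 0 for 2 (IL27RA and IL17RE), where 16.7% and 20.3% of all genes did so. The median log2 ratio was 0.10 over the 53 genes and -0.02 over the 13040, and 34 of the 53 (64.2%) were above 0, against 46.8% of all.

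**Figure D1:**
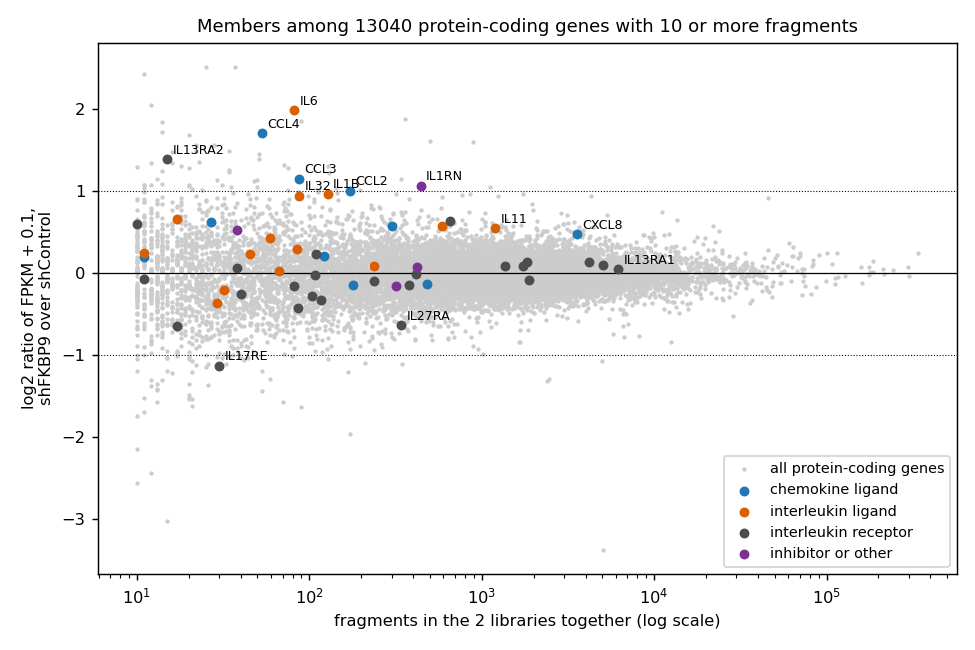
Log2 ratio of FPKM + 0.1 (shFKBP9 over shControl, y) against fragments in the 2 libraries together (log scale, x) for 13040 protein-coding genes in grey and the 53 genes of the set in colour by role, with dotted lines at 1 and -1. IL6, CCL4, CCL3, CCL2 and IL1RN lie above the upper line, and IL13RA2 lies there with 15 fragments.

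Of the 24 ligands with 10 fragments, 20 were higher in shFKBP9 and 4 lower, with a median log2 ratio of 0.45, and 10 intervals lay above 0 and none below. Of the 25 receptors, 11 were higher and 14 lower, with a median of -0.03. Summed over all 81 ligands, the level went from 86.6 FPKM in shControl to 119 in shFKBP9, and over all 41 receptors from 123 to 126. These are descriptions of 1 library pair, and no test of the ligands against the receptors was made.

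**Figure D2:**
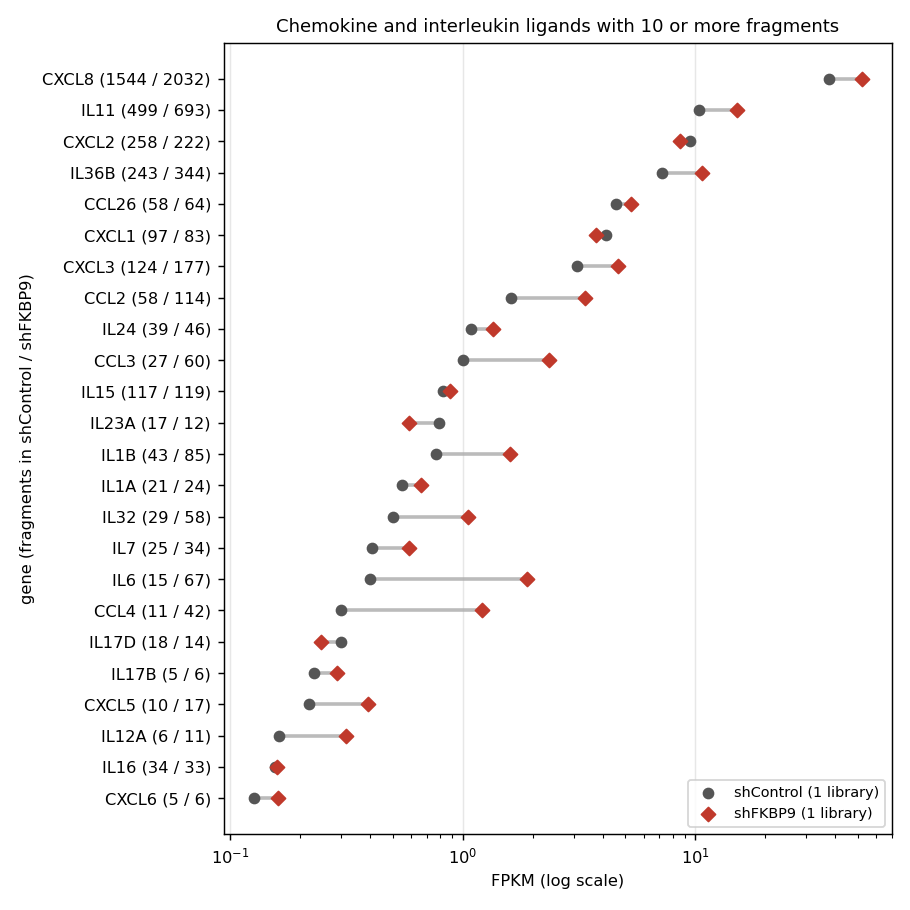
FPKM (log scale, x) of the 24 ligands with 10 or more fragments in shControl (grey circles) and shFKBP9 (red diamonds), 1 library each, with fragments in brackets. CXCL8 is the highest in both libraries, and the widest gaps are those of IL6 and CCL4.

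CXCL8, the neutrophil attractant also known as IL-8, was by far the most abundant ligand, at 37.5 FPKM (1544 fragments) in shControl and 52.0 FPKM (2032 fragments) in shFKBP9. The log2 ratio was 0.47 (interval 0.38 to 0.57). It held 43.3% of the summed ligand FPKM in shControl and 43.9% in shFKBP9, so its share barely differed while its level was higher.

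CXCL1, CXCL2 and CXCL3 are closely related attractants that act on CXCR2, as CXCL8 does. CXCL3 was at 3.09 FPKM (124 fragments) in shControl and 4.65 FPKM (177 fragments) in shFKBP9, a log2 ratio of 0.57 (0.25 to 0.93). CXCL2 was at 9.50 FPKM (258 fragments) and 8.62 FPKM (222 fragments), a log2 ratio of -0.14 (-0.41 to 0.12). CXCL1 was at 4.13 FPKM (97 fragments) and 3.73 FPKM (83 fragments), at -0.14 (-0.59 to 0.29). CXCL1 and CXCL2 thus had the same ratio, and the interval of CXCL3 overlaps that of CXCL1 but not that of CXCL2. Of the 100-bp windows in their transcripts, CXCL2 shares 5.34% and CXCL3 3.27% with the other gene. Summed over the 3 genes the fragments were 479 and 482, with an interval of -0.10 to 0.27 for these fragments. The log2 ratio of the summed FPKM, a different quantity as gene length enters it, was 0.02.

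The remaining detected genes of the CXC cluster were low. CXCL5 had 10 and 17 fragments (shControl, then shFKBP9; ratio 0.63, -0.37 to 2.13) and CXCL6 had 5 and 6. PF4, PF4V1 and PPBP, the platelet chemokines of the same cluster, had none. The cluster spans 359 kb of chromosome 4, from 73740506 to 74099293 in hg38. Outside it, CXCL10 and CXCL11, known for their induction by interferon, had 0 and 3 and 0 and 1 fragments, CXCL9 none, and CXCL12 0 and 2.

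CCL2, the attractant of monocytes, was at 1.61 FPKM (58 fragments) in shControl and 3.34 FPKM (114 fragments) in shFKBP9. Its log2 ratio was 1.01 (0.58 to 1.53), just past the threshold. CCL3 and CCL4, the macrophage inflammatory proteins, are neighbours in the genome and were both higher. CCL3 was at 0.998 FPKM (27 fragments) and 2.34 FPKM (60 fragments), a log2 ratio of 1.15 (0.55 to 1.94). CCL4 was at 0.299 FPKM (11 fragments) and 1.20 FPKM (42 fragments), a log2 ratio of 1.71 (1.03 to 3.12).

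These were the only 3 genes of the 17 in the CC cluster of chromosome 17 with at least 10 fragments. Between CCL2 and CCL3 lie 12 further CC genes, of which CCL5 had 3 and 1 fragments and the other 11 had none (CCL7, CCL11, CCL8, CCL13, CCL1, CCL16, CCL14, the read-through CCL15-CCL14, CCL15, CCL23 and CCL18). CCL3L1 had 3 and 0 fragments and CCL4L2 none. With their copies added, the log2 ratio was 1.01 for CCL3 and 1.71 for CCL4. CCL26, an eotaxin on chromosome 7, was at 4.54 FPKM (58 fragments) and 5.28 FPKM (64 fragments), a higher level than CCL2 in both libraries, with a log2 ratio of 0.21 (-0.32 to 0.76). CCL20, the ligand of CCR6, had 1 and 7 fragments, fewer than a call required, and CCR6 had none.

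**Figure D3:**
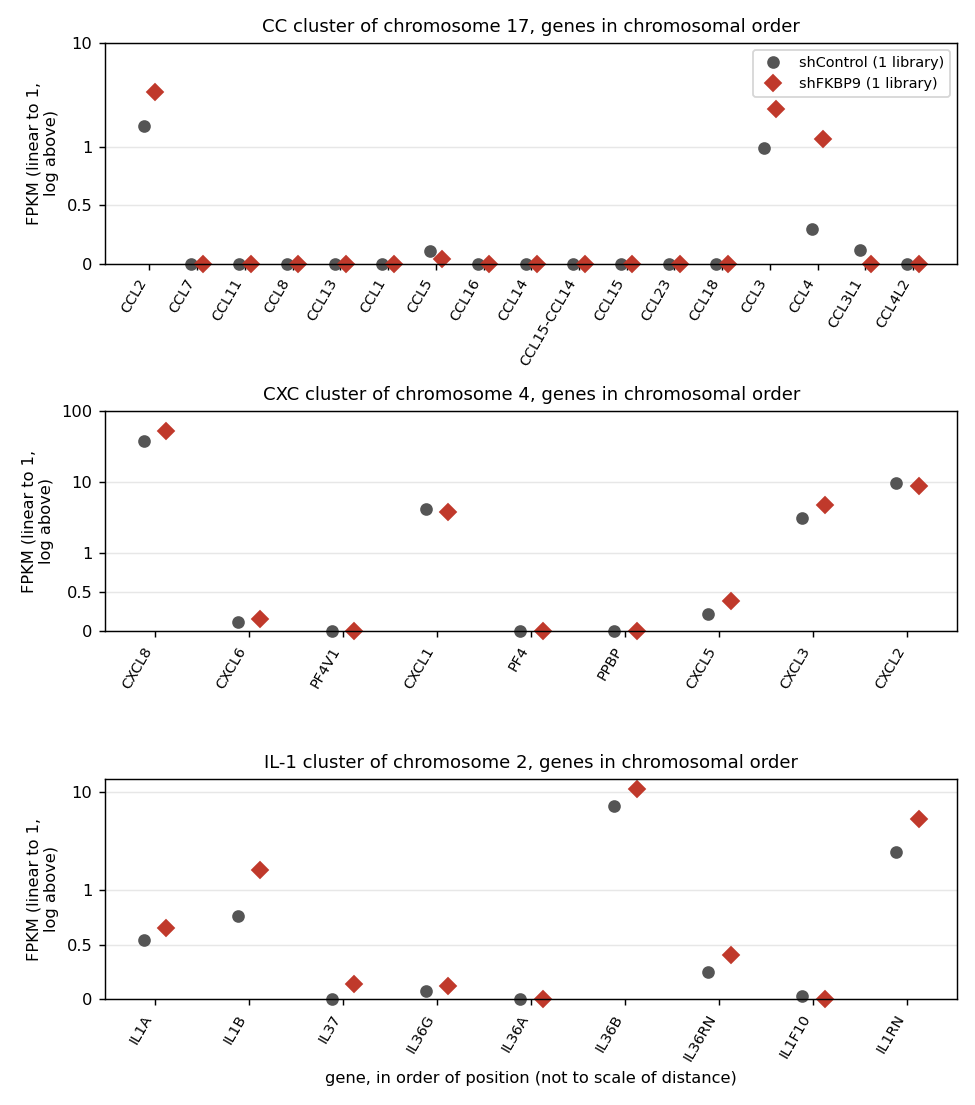
FPKM (y, linear up to 1 and logarithmic above) of the chemokine and IL-1 family genes in the order of their position along 3 gene clusters, in shControl (grey circles) and shFKBP9 (red diamonds), 1 library each. In the CC cluster only CCL2, CCL3 and CCL4 stand above the genes near 0, and in the IL-1 cluster IL1B, IL36B and IL1RN are higher in shFKBP9 beside low or silent neighbours such as IL36G and IL36A.

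IL6, the cytokine of fever and the acute phase, had the highest ratio of the set. It was at 0.400 FPKM (15 fragments) in shControl and 1.89 FPKM (67 fragments) in shFKBP9, a log2 ratio of 1.99 (1.41 to 3.15), or 4.71-fold with nothing added. Its level stayed below that of CXCL8, IL11, IL36B or CXCL2 in both libraries. The paper reports higher IL6 RNA by RT-PCR in these knockdown cells and in another GBM line with the knockdown. IL6 lies on chromosome 7 from 22725884 to 22732002 on the plus strand, and 2 genes on the opposite strand overlap it: the protein-coding STEAP1B, with 269 and 274 fragments (log2 ratio 0.10, -0.14 to 0.35), and the antisense gene AC073072.1, with 3 and 13. How many of the fragments of STEAP1B lie in the overlap was not tested. The nearest gene of the set on the same chromosome is CCL26, far from IL6 at 75769533 to 75789896, with a ratio of 0.21. The next is CCL24, with 0 and 1 fragments.

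IL11, which like IL6 signals through IL6ST, was the second most abundant ligand, at 10.3 FPKM (499 fragments) in shControl and 15.1 FPKM (693 fragments) in shFKBP9. The log2 ratio was 0.55 (0.38 to 0.72). Of the IL-6 family under other names, 8 of 10 genes had 10 fragments, 7 higher and 1 lower, and none was called. LIF was at 3.63 and 4.52 FPKM (log2 ratio 0.31, 0.07 to 0.56) and CLCF1 had 785 and 851 fragments (0.19, 0.05 to 0.33), and OSMR, the oncostatin M receptor, was at 19.7 and 21.2 FPKM (0.10, 0.03 to 0.18).

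The IL-1 family of chromosome 2 held several of the higher genes. IL1B, the secreted pyrogen, was at 0.767 FPKM (43 fragments) in shControl and 1.60 FPKM (85 fragments) in shFKBP9, and its log2 ratio of 0.97 (0.51 to 1.62) lies just below the threshold. IL1A, its neighbour, had 21 and 24 fragments (0.23, -0.64 to 1.19). IL36B, a cytokine known from epithelia, was at 7.18 FPKM (243 fragments) and 10.7 FPKM (344 fragments), a log2 ratio of 0.57 (0.34 to 0.82).

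The other IL-36 ligands were at or near 0, with 2 and 3 fragments on IL36G and none on IL36A. IL36RN, the antagonist of the IL-36 receptor, had 15 and 23 fragments (0.53, -0.31 to 1.74). IL1RN, the antagonist of IL-1, was at 2.48 FPKM (146 fragments) in shControl and 5.30 FPKM (296 fragments) in shFKBP9. Its log2 ratio was 1.07 (0.81 to 1.39), and it had more fragments than any of the other genes called. Thus a ligand and its antagonist, IL1B and IL1RN, were both about as much higher, and IL1RN was the more abundant of the pair in both libraries. IL33 had no fragment and IL18 had 2 and 1.

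IL32, a cytokine of natural killer and epithelial cells, was at 0.499 FPKM (29 fragments) in shControl and 1.05 FPKM (58 fragments) in shFKBP9, with a log2 ratio of 0.94 (0.41 to 1.77). IL24 was at 1.09 and 1.35 FPKM (39 and 46 fragments) and IL15 at 0.822 and 0.882 FPKM (117 and 119 fragments), with intervals that include 0. The other interleukins with 10 fragments were IL7 (25 and 34), IL16 (34 and 33), IL17D (18 and 14), IL23A (17 and 12), IL12A (6 and 11) and IL17B (5 and 6), and no difference was detectable for them at this depth. Of the products of T cells, IL4 had 3 and 1 fragments and IL10 had 0 and 1, while IL2, IL3, IL5, IL9, IL13, IL17A, IL17F, IL21, IL22 and IL26 had no fragment in either library. The same was true of IL12B, IL19, IL20, IL25, IL27, IL31 and, as above, IL33 and IL36A, and of CCL17, CCL21, CCL22, CCL25, CCL27, CCL28, CXCL13 and CXCL17 among the chemokines outside the clusters.

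**Figure D4:**
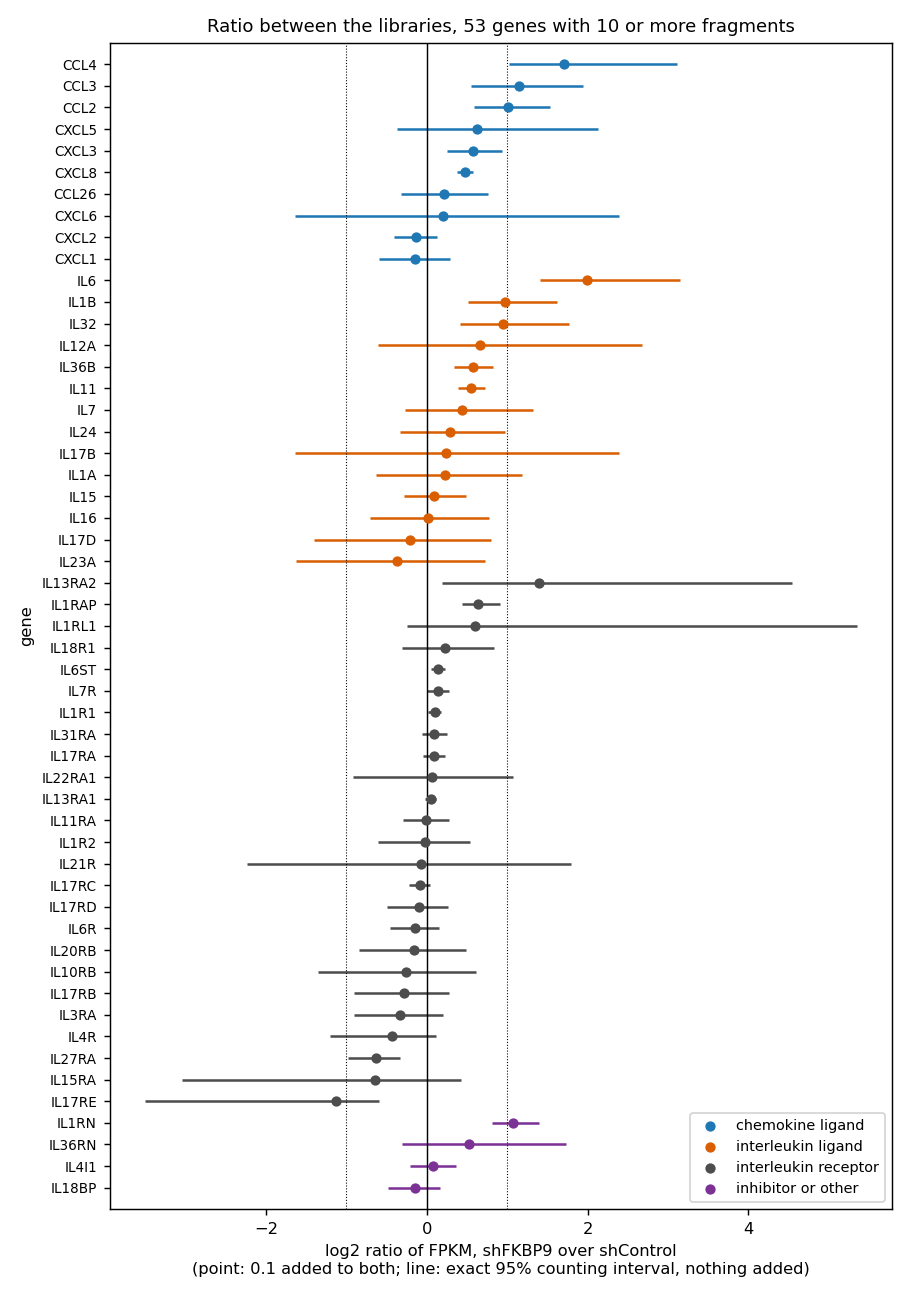
Log2 ratio (x, points, 0.1 added to both FPKM) of the 53 genes with 10 or more fragments, with exact 95% counting intervals as lines, grouped by role and ordered by ratio. The interval is above 0 for 10 of 24 ligands, and for 5 receptors of which IL1R1, IL6ST and IL7R have ratios of 0.10 to 0.14.

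The receptors were dominated by IL13RA1, a chain of the IL-4 and IL-13 receptor, at 39.6 FPKM (3137 fragments) in shControl and 40.9 FPKM (3073 fragments) in shFKBP9. Its log2 ratio was 0.05 (-0.03 to 0.12). IL1R1, the signalling receptor of IL-1, was at 19.4 and 20.8 FPKM (0.10, 0.02 to 0.18), and IL6ST at 12.2 and 13.5 FPKM (0.14, 0.05 to 0.23). IL17RC, IL7R, IL31RA and IL17RA, at 5 to 12 FPKM, had log2 ratios between -0.09 and 0.14. Deeply counted receptors thus differed little between the libraries.

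IL1RAP, the accessory chain of the IL-1, IL-33 and IL-36 receptors, stood apart from its partner IL1R1. It was at 1.24 FPKM (260 fragments) in shControl and 1.98 FPKM (393 fragments) in shFKBP9, a log2 ratio of 0.63 (0.44 to 0.90), above the interval of IL1R1. The decoy IL1R2 was at 1.01 and 0.986 FPKM (-0.03, -0.60 to 0.54), and IL18R1 had 51 and 58 fragments. IL1RL2, the ligand-binding chain for IL36B, had 1 fragment in shControl and none in shFKBP9, and IL1RL1 had 2 and 8.

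On the lower side, IL27RA, the receptor of interleukin 27 that pairs with IL6ST, was at 3.97 FPKM (213 fragments) in shControl and 2.52 FPKM (128 fragments) in shFKBP9. Its log2 ratio was -0.64 (-0.99 to -0.33). IL17RE, the receptor of IL17C, was at 0.283 FPKM (24 fragments) and 0.0747 FPKM (6 fragments), a log2 ratio of -1.13 (-3.50 to -0.59). IL13RA2, the decoy receptor of IL-13 that is known as a glioma antigen, was at 0.102 FPKM (3 fragments) and 0.430 FPKM (12 fragments), a log2 ratio of 1.39 (0.19 to 4.54), and both values are small beside IL13RA1. IL4R had 52 and 34 fragments (-0.43, -1.20 to 0.11), IL3RA 67 and 50 (-0.33, -0.90 to 0.20) and IL6R 204 and 174 (-0.14, -0.45 to 0.15). For the low receptors the intervals also include 0: IL17RD had 127 and 111 fragments, IL17RB 59 and 45, IL20RB 44 and 37, IL10RB 23 and 17, IL22RA1 19 and 19, IL15RA 12 and 5, and IL21R 6 and 5. The 7 silent receptors were IL2RG, IL5RA, IL20RA, IL22RA2, IL23R, IL1RAPL1 and IL1RAPL2.

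**Figure D5:**
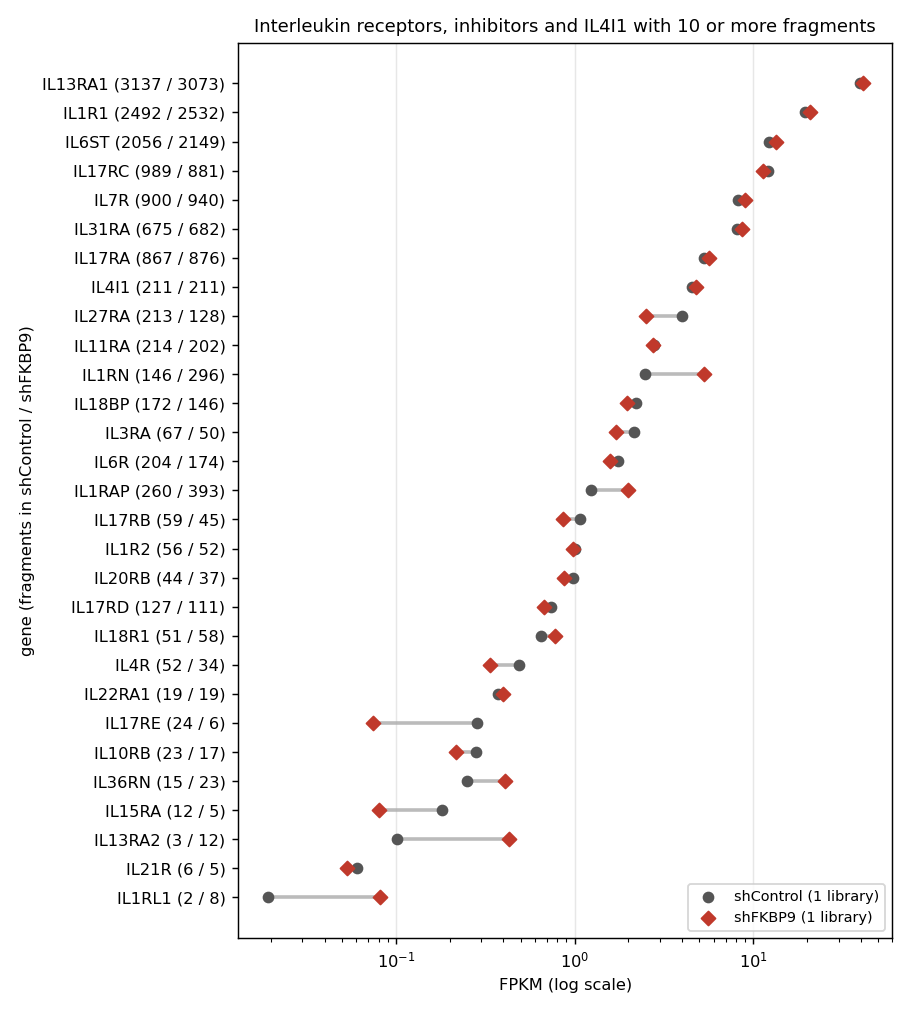
FPKM (log scale, x) of the 25 interleukin receptors and of IL1RN, IL36RN, IL18BP and IL4I1 in shControl (grey circles) and shFKBP9 (red diamonds), 1 library each, with fragments in brackets. The receptors above 5 FPKM nearly coincide, and IL1RN, IL1RAP and IL27RA have the widest gaps among the genes above 1 FPKM in both libraries.

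Some receptor values rest on shared sequence or overlapping genes. Of the 53 genes, 9 overlap another protein-coding gene with at least 10 fragments, and whether the counting used strand is not given in the sources used here. IL11RA shares 23.2% of its 100-bp windows with a read-through gene, as do IL17RC with 40.5% and IL10RB with 19.7%, and IL4I1 shares 10.35% with NUP62. IL18BP (172 and 146 fragments, log2 ratio -0.15, -0.49 to 0.17) lies opposite NUMA1, which had 3331 and 2691. IL4I1 itself had 211 fragments in each library.

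The chemokine receptors for the detected ligands were mostly silent. Of 23 chemokine receptors, 12 had no fragment, among them CXCR1 and CXCR2 for CXCL8 and its relatives, CCR2 for CCL2, CCR3 for CCL26 and CXCR4 for CXCL12. CCR1, a receptor of CCL3, was the most abundant at 3.84 FPKM (190 fragments) in shControl and 3.01 FPKM (141 fragments) in shFKBP9 (log2 ratio -0.34, -0.68 to -0.03). ACKR3, the scavenger of CXCL11 and CXCL12, was called lower, with 19 and 6 fragments (-1.15, -3.20 to -0.21), where 2.27% of all genes with 10 to 99 fragments were, and it reached 10 fragments only through the shControl library. Of the 7 chemokine receptors with 10 fragments, 0 were called higher. CCR10 had 38 and 41 fragments and CCRL2 27 and 33. The 7 receptors had a median of -0.22, 3 higher and 4 lower. Of the 6 chemokines under other names (XCL1, XCL2, CX3CL1 and the platelet chemokines above), XCL1 had 1 and 0 fragments and the other 5 none.

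The interleukin ligands, in contrast, met measured receptors in part. For IL6 and IL11 the chains IL6R, IL11RA and IL6ST were all found, and for IL1A and IL1B the chains IL1R1 and IL1RAP. For IL15, the shared chain IL2RB had 1 and 0 fragments and IL2RG none, and IL7R, at 8.20 FPKM (900 fragments) and 9.03 FPKM (940 fragments), likewise had no IL2RG beside it.

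Of the signalling genes downstream 0 were called, near the background of 0.452% higher and 0.445% lower. Of 17 genes of JAK-STAT signalling, 16 had 10 fragments, 6 higher and 10 lower, with a median of -0.07. SOCS3, a feedback inhibitor of IL6ST signalling, was at 39.9 and 36.9 FPKM (-0.12, -0.21 to -0.02), JAK1 at 30.3 and 32.1 FPKM (0.08, 0.01 to 0.15) and PTPN11 at 30.6 and 34.2 FPKM (0.16, 0.10 to 0.22). Of 18 genes of IL-1 receptor signalling and IL-1 processing, 16 had 10 fragments, 7 higher and 9 lower, with a median of -0.04. IRAK1 was at 116 and 106 FPKM (-0.13, -0.18 to -0.09), TAB2 at 23.7 and 24.3 FPKM and TOLLIP at 14.5 and 15.7 FPKM, while MYD88, the adaptor of IL1R1, was at 11.3 and 8.72 FPKM (-0.37, -0.53 to -0.22). CASP1, which cleaves pro-IL-1β, had 22 and 11 fragments. Of 9 colony-stimulating factors and shared receptors, 5 had 10 fragments, 2 higher and 3 lower, median -0.02, with CSF1 at 39.1 and 44.3 FPKM and CSF3 at 23.0 and 27.1 FPKM, and IFNLR1 with 93 and 63 fragments (-0.44, -0.97 to -0.01).

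Because CCL3, CCL4 and IL1B are products of macrophages, the markers of other cells were read beside them. Of 12 macrophage and microglia markers, PTPRC, AIF1, TYROBP, SPI1 and C1QA had no fragment in either library, and the 3 with 10 fragments (CSF1R, CD14 and FCER1G) all had ratios above 0, with a median of 0.39 and 0 called. CD14 had 13 and 24 fragments (0.81, -0.07 to 2.06). CSF1R alone was at 8.30 FPKM (774 fragments) and 9.67 FPKM (855 fragments), and the other 11 summed to 23 fragments in shControl and 37 in shFKBP9. Of 12 lymphocyte and plasma cell markers, CD3D, CD3E, CD8A and MS4A1 had no fragment in either library, and without IL7R, which is itself one of the receptors above, they summed to 33 and 38. Both markers of this list with 10 fragments, IL7R and NKG7, were slightly higher in shFKBP9, and neither was called. The 6 endothelial markers summed to 383 and 331 fragments, mostly KDR, and 4 had 10 fragments (3 higher, 1 lower). The part of such cells in the values of CCL3, CCL4 and IL1B was not tested.

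Of 6 keratinocyte markers, 4 had 10 fragments, KRT14, KRT17 and KRT5 only through the shFKBP9 library, where they were high. That KRT14 and KRT17 passed 2-fold is thus no separate result. KRT14 had 1 and 24 fragments, KRT17 0 and 14, KRT5 8 and 17, KRT6A 0 and 7, DSG3 0 and 3 and TP63 6 and 6, in all 15 in shControl and 71 in shFKBP9, or 0.172 and 1.32 FPKM. Keratinocytes are known to make IL1RN and IL36B, and the part of such cells in the values of IL1B, IL1RN and IL36B was not tested.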

How the data were processed

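The authors sequenced RNA of the control and FKBP9-knockdown cells (1 library each), aligned paired-end reads to hg38 with HISAT2 2.0.5, counted per gene with featureCounts 1.5.0-p3 (edgeR is also listed), and deposited FPKM with gene length and position; the annotation release is not given in the sources used here. The versions are from the submitters' processing notes. Whole fragments were recovered as FPKM times gene length over what 1 fragment is worth, estimated from the lowest values: 100% of values above 0 were whole within 0.01. No count model was run, as 1 library per condition leaves no spread to estimate. The members and lists were chosen with earlier results of these data known. The genes named are the members with 10 or more fragments over both libraries, those with 1 to 9 by their counts, receptors of detected ligands, of the pathway lists those past 2-fold and the 3 with the highest FPKM, and the nearest members of the 2 strongest ratios. CASP1, MYD88, the silent members, overlapping genes and single markers were named after their values were seen. Intervals are exact Clopper-Pearson at 95%, and, like the floor of 3 fragments, cover counting error only. Reads are not independent molecules. Sequences are RefSeq (GRCh38.p14, the same assembly as hg38), with 1 window per gene, the most upstream. Shared windows come from GENCODE release 44 transcripts. Alternatives were other added values, scalings, TPM, minimums and sums over copies. Recovery and intervals were tested on simulated data. Tools were matplotlib 3.10.9, scipy 1.17.1, pandas 2.3.3, numpy 2.4.6 and Python 3.11.15.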

Additional observations from a re-analysis of the deposited data

Results flagged for a closer look

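AC073072.1, an antisense gene that overlaps IL6, was flagged because it lies outside the protein-coding genes compared and had a higher level with the knockdown: 3 fragments in shControl and 13 in shFKBP9 (0.121 and 0.555 FPKM, log2 ratio 1.56, 95% counting interval 0.33 to 4.64). The higher level was part of the reason for flagging, so it is no separate result. AC073072.1 reached the minimum of fragments only through the shFKBP9 library, where it was high. How many other non-coding genes would be flagged in the same way was not tested. STEAP1B, a protein-coding gene on the same strand as AC073072.1 that also overlaps IL6, had 269 and 274 fragments (0.10, -0.14 to 0.35). Whether the counting used strand is not given, so how reads in the overlap of AC073072.1 and IL6 were assigned is not known. IL6 and AC073072.1 summed gave 18 and 80 fragments, with an interval of 1.48 to 3.05 for these fragments. The log2 ratio of their summed FPKM, a different quantity as gene length enters it, was 2.03.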

How the results depend on the processing

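The 6 genes called higher (0.452% of all genes) became 1 with 1 added to FPKM (IL6; 0.0613% of all), 10 with no minimum (0.792%) and 16 with the counting interval in place of 2-fold (16.7%). They were 9 with 0.01 added (1.21%) and 9 with TPM (0.966%), and 5 or 6 under the other settings run (0.199% to 0.475%), among them 5 with 10 fragments in each library (0.204%). The 1 called lower (0.445%) became 0 with 1 added (0.046%), with a minimum of 50 fragments (0.130%) or of 10 in each library (0.155%), or with 1 FPKM in either library (0.193%), and 2 with 0.01 added (1.37%), with no minimum (0.818%) or with the interval (20.3%). The number with at least 10 fragments, 53, was 45 with 10 in each library and 49 with 10 in either. The median log2 ratio of the set ran from 0.08 to 0.12, and that of all genes from -0.04 to 0.00. With 1 added, the log2 ratio of IL6 was 1.04, CCL4 0.76, IL1RAP 0.41, IL13RA2 0.38 and IL17RE -0.26, since low values are pulled towards 0. Only IL11RA changed sign with the scaling, to 0.01 with median scaling. CXCL1 and CXCL2 also changed sign when summed with CXCL3. That sum, the sum of IL6 with its antisense gene and minimums of 20 fragments or of 10 in each library were chosen after seeing the data. No paired analysis was possible because each condition has 1 library. Depth limits the genes with few fragments: 24 of the 53 had 10 to 99.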

Other observations

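Counts of the genes with 1 to 9 fragments, 27 in all, are completed here (CCL20, CCL24, CCL3L1, CXCL10, CXCL11, CXCL12, IL4, IL10, IL18, IL36G, IL1RL2 and IL2RB are given above). Among the chemokines, CXCL14 had 3 fragments in shControl and 6 in shFKBP9, CCL5 3 and 1, CXCL16 4 and 1, and CCL19 0 and 2. Among the interleukins, IL34 had 4 and 3, IL37 0 and 2, IL17C 0 and 1 and IL1F10 1 and 0, and among the receptors IL18RAP had 1 and 5, IL12RB2 4 and 2 and IL12RB1 3 and 1, IL9R 1 and 0, and IL2RA, IL10RA and IL17REL 0 and 1 each. No difference was detectable for these genes at this depth.

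Of 13 genes of other biotypes named after members of the set, 6 had a fragment (5 antisense RNAs and the pseudogene IL9RP3), the most being IL10RB-DT with 6 and 7.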
